A study of Mus musculus with 24 samples.

Results

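Kidneys of male mice were compared with kidneys of female mice, all taken mid-way through the inactive period, the resting part of the day. The comparison takes in the 6 male and 6 female libraries that the labels place in that period, 12 of the 24 libraries of the series, and the 16445 autosomal genes, of 56748 identifiers in all, whose mean normalized count over the series was at least 10. Male inactive (labels: kidney, male, inactive) and female inactive (kidney, female, inactive) are the groups compared. Male active and female active, with 6 libraries each, enter the filter on low counts and the shared estimate of the spread. Otherwise they are used only for comparing the 2 periods. No treatment, transgene or deletion is named for any group, and the strain, the age, the stage of the female cycle and whether each library is a separate animal are not stated in the labels. The p-values therefore measure the spread between libraries within all 4 groups, which may be partly technical. Genes on the X and Y chromosomes were left out, so the differences below are those of genes that both sexes carry in equal copy number.

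The kidney is among the organs whose gene expression differs most between male and female mice, and most of that difference is known from the proximal tubule, the first stretch of the nephron, which takes back filtered water, salt, sugar, amino acids and protein and secretes drugs and organic acids. Its cells carry the androgen receptor, a nuclear receptor that testosterone switches on, and genes such as Kap are long known to depend on it. Female rodents differ from males in circulating prolactin and in the pattern of growth hormone release, and both hormones act on the kidney through receptors of the JAK and STAT5 pathway. The last segment of the proximal tubule, in the outer medulla, is the best known site of sex-biased transporters and cytochromes P450.

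The 12 libraries held 31039867 to 38320991 reads, recovered from the deposited normalized counts, and all values below are those normalized counts, gene counts divided by 1 size factor per library. Xist, the RNA of the silenced X chromosome, was at 26940 to 30894 in the female libraries and at 5.84 to 18.4 in the male ones, and the Y-linked helicase Ddx3y was at 1929 to 2297 in males and at most 4.96 in females, so the labelled sex matched these genes in all 12. The first principal component of these 12 libraries took 55.4% of the variance and parted the sexes. Normalized counts summed to 35973179 to 38313596 in the male libraries and 29558700 to 31656666 in the female ones. Setting all libraries to equal totals shifts the log2 differences toward females.

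The majority of the autosomal genes differed between the sexes, most of them by little. At an adjusted p under 0.05, the rule for a call throughout, 4675 genes (28.4%) were higher in males and 4564 (27.8%) higher in females, which together makes 9239 genes or 56.2% of those tested. Most of these differences were small, with a median of 1.40-fold among called genes. At least 2-fold differences were found in 569 genes higher in males (3.46%) and 845 higher in females (5.14%), at least 4-fold ones in 168 and 105, and at least 16-fold ones in 47 and 20. In 5382 genes (32.7%) the 6 male and 6 female values did not overlap. The even balance of directions rests on the scaling: 50.6% of called genes were higher in males as deposited and 49.5% with TMM scaling, but 41.4% with upper quartile scaling (3826 and 5421 genes) and 18.7% when every library was set to the same total (1983 and 8604 genes). The median log2 difference of all 16445 genes, male minus female, was -0.03 as deposited, -0.10 with upper quartile scaling and -0.31 with equal totals. Counts of list members below are to be read beside the shares of all genes tested, 28.4% higher in males and 27.8% in females. For list counts with equal totals, the same figures are 1983 and 8604 of 16445 genes.

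**Figure D1:**
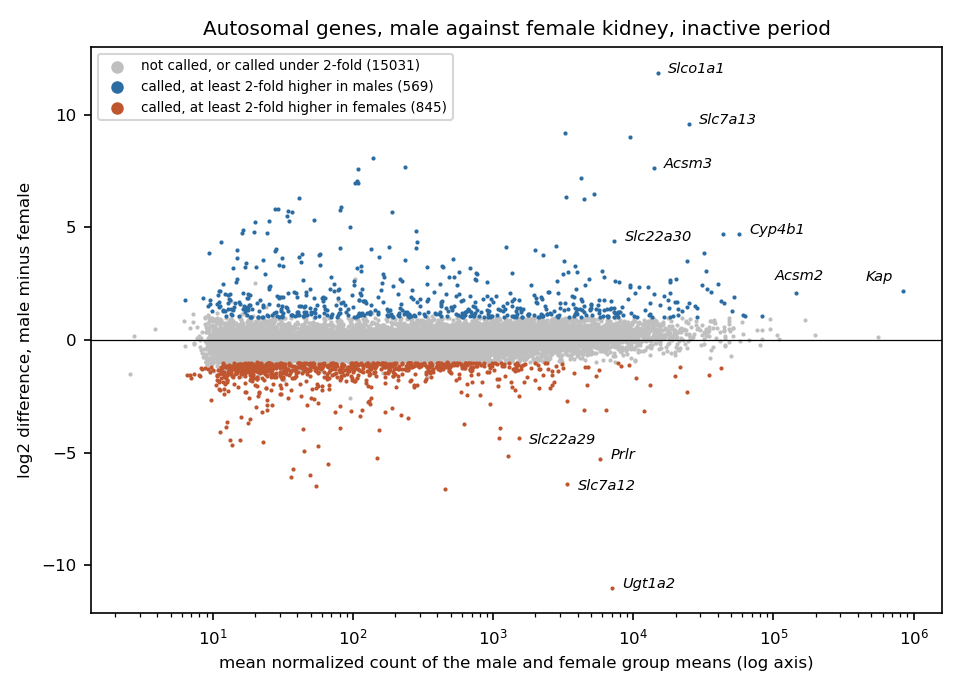
Each point is an autosomal gene, with its mean normalized count on a log axis and its log2 difference, male minus female, in the inactive period. Coloured points are the 569 genes called at least 2-fold higher in males and the 845 called at least 2-fold higher in females. Genes at least 2-fold apart lie on both sides of the line at high as at low counts, with Kap and Slco1a1 above it and Ugt1a2 and Prlr below it.

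Males and females also divided their RNA differently. The 569 genes at least 2-fold higher in males took 12.2 to 13.2% of all normalized counts in each male library and 3.60 to 4.52% in each female one. The 845 genes at least 2-fold higher in females took 2.21 to 2.38% of each female library and 0.555 to 0.7004% of each male one. These genes were chosen by this same comparison, so the shares describe their abundance and are no further test. A single gene, Kap, which encodes a small secreted protein of the proximal tubule, took 3.48 to 3.85% of the male libraries and 0.689 to 1.19% of the female ones.

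The 15 largest differences in the male direction included transporters and enzymes as well as genes of other kinds. Slco1a1, an organic anion transporting polypeptide of the apical membrane, was at 22131 to 35662 with a median of 30352 in males and at 1.61 to 19.6 with a median of 6.304 in females, a mean ratio of 3519-fold (log2 difference 11.87 ± 0.44 SE, adjusted p = 3.32e-15). Slc7a13, a transporter of acidic amino acids and cystine in the last proximal segment, was at 42320.0 to 54499 with a median of 50627 in males and 36.2 to 124 with a median of 54.01 in females. Slc7a13 was 719.9-fold higher in males (log2 difference 9.61 ± 0.33 SE, adjusted p = 7.59e-16). The lowest male library stood far above the highest female one in both genes. Pzp, a broad protease inhibitor of the alpha-2-macroglobulin family, was at 5924 to 7334 with a median of 6390.5 in males against 4.09 to 21.2 with a median of 9.37 in females (557-fold). Cyp2j13, a cytochrome P450 that the mouse kidney expresses, was at 16462 to 20822 with a median of 19348 in males against 14.7 to 71.7 with a median of 34.3 in females (482-fold). Acsm3, a medium-chain acyl-CoA synthetase of mitochondria, was at 23617 to 33993 with a median of 27195 in males against 88.4 to 179 with a median of 152 in females (194-fold). The 15 were picked among called genes whose groups did not overlap, so neither trait is a further result for these 5 genes.

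Several genes were near or at 0 in females. Mpped1, a metallophosphoesterase-domain protein, had 1560 reads over the male libraries and none over the female ones, which makes it at least 626-fold higher in males against a floor of 3 reads over the female group. Neurog2, a transcription factor of neuronal precursors, had 462 male and 0 female reads and was at least 185-fold higher, and Cyp2b10, a drug-inducible cytochrome P450 of the liver, had 332 and 0 and was at least 133-fold higher. These bounds cover counting error only. Apoh, a plasma lipid-binding protein, was at 417 to 529 with a median of 476 in males and 0 to 3.27 with a median of 1.94 in females, Cntnap5a, of the contactin-associated family, at 138 to 273 with a median of 224 in males and 0 to 3.72 with a median of 0 in females, and Lipo2, of a lipase family, at 78.6 to 269 with a median of 222 in males and 0 to 3.91 with a median of 0 in females. Synpr, a synaptic vesicle protein, varied more among males, from 23.5 to 311, and still stayed above every female library, the highest of which was at 6.06. These genes too were listed because they were called without overlap, with log2 differences between 5.78 for Synpr and 8.10 for Mpped1.

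In the female direction the largest difference was in Ugt1a2, which encodes an enzyme that attaches glucuronic acid to small molecules. It was at 11139.6 to 15352 with a median of 14450.2 in females and at 1.16 to 12.7 with a median of 6.39 in males, 1985-fold higher in females (log2 difference -11.00 ± 0.38 SE, adjusted p = 6.99e-16). Slc17a2, a member of the phosphate and urate transporter family, was at 657 to 1131 with a median of 924 in females and 4.28 to 18.4 with a median of 6.64 in males (101-fold). Atp13a4, a P-type cation pump, had 736 reads over the female libraries and 2 over the male ones, a ratio of 306 with a 95% counting interval of 84.4 to 2530. Slc7a12, an amino acid transporter of the same family as Slc7a13, ran the other way from its relative and was at 4829.5 to 8883 with a median of 6646 in females and 49.4 to 276 with a median of 63.8 in males. Slc7a12 was 69.7-fold higher in females (log2 difference -6.38 ± 0.40 SE, adjusted p = 2.45e-11). Prlr, the prolactin receptor, was at 7926 to 13812 with a median of 11480.4 in females and 178 to 808 with a median of 244 in males. Prlr was 33.9-fold higher in females (log2 difference -5.27 ± 0.37 SE, adjusted p = 1.24e-10). Abcc3, an efflux pump for conjugated organic anions, was at 1827 to 3731 with a median of 2197 in females and 50.8 to 96.03 with a median of 64.9 in males (36.2-fold). These 6 genes were picked among called genes whose groups did not overlap, so neither trait is a further result for them.

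The rest of the 15 largest female-direction differences, apart from Slc22a29 and Ugt1a1, which are described with their families, were enzymes and genes of lower level. Kynu, kynureninase of tryptophan breakdown, was at 1880.1 to 2426 with a median of 2082 in females and 87.4 to 184 with a median of 150.2 in males (14.7-fold). Bhmt, which remethylates homocysteine with betaine, was at 597 to 1423 with a median of 1191 in females and 62.3 to 99.9 with a median of 86.2 in males (13.6-fold). Tmprss6, the protease that lowers hepcidin, was at 62.8 to 111 with a median of 86.2 in females and 0 to 11.7 with a median of 1.64 in males (26.4-fold). Myh1, a fast myosin heavy chain of skeletal muscle, was at 71.9 to 159 with a median of 99.7 in females and 0 to 10.7 with a median of 3.33 in males, and Clic6, a chloride intracellular channel protein, at 215 to 490.1 with a median of 245 in females and 2.31 to 52.6 with a median of 19.8 in males. Ccdc170, a coiled-coil protein, was 11.3-fold and Rrh, an opsin family member, 10.03-fold higher in females. A call and groups that did not overlap were conditions for listing all of these.

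**Figure D2:**
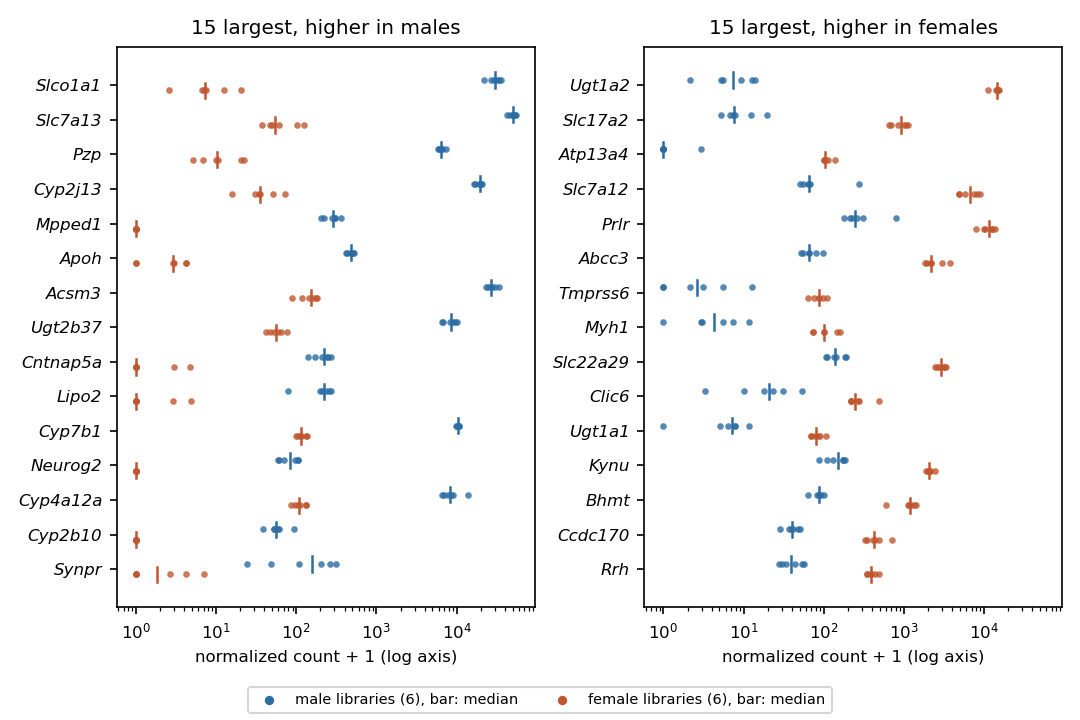
Normalized count plus 1 on a log axis in each of the 6 male and 6 female libraries, for the 15 genes with the largest differences in each direction among named genes with separated groups, with a bar at each median. Males span 22131 to 35662 for Slco1a1 and females 1.61 to 19.6, and male replicate 5 is the single male point to the right of the others for Slc7a12 and Prlr.

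Male replicate 5 stood apart in 2 of these genes. Its Prlr count was 808, where the other 5 males were at 178 to 305, and its Slc7a12 count was 276, where the others were at 49.4 to 66.4. Without that library the log2 differences were -5.57 for Prlr and -6.75 for Slc7a12, so both stayed called and moved away from 0. Over the 353 male-high genes at least 2-fold apart with separated groups and a mean of 50 or more, its median deviation from the male mean was -0.02 on the log2 scale, against -0.08 to 0.09 for the other males. Over the 376 such female-high genes it was 0.09, against -0.18 to 0.22.

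The hormone receptors showed modest differences beside Prlr. Esr1, the estrogen receptor alpha, was higher in males, at 756 to 1041 with a median of 915 in males against 281 to 483 with a median of 380.4 in females (2.42-fold, log2 difference 1.282 ± 0.11 SE, adjusted p = 8.89e-11), and the groups did not overlap. Pgr, the progesterone receptor, was low in both sexes and higher in females, at 53.8 to 83.6 with a median of 65.5 in females against 20.8 to 73.7 with a median of 38.5 in males (log2 difference -0.72 ± 0.22 SE, adjusted p = 0.007), with overlapping groups. Ghr, the growth hormone receptor and a far more abundant RNA, was at 39762 to 43401 with a median of 41391 in males and 22418 to 32935 with a median of 28651 in females. Ghr was 1.47-fold higher in males (log2 difference 0.57 ± 0.08 SE, adjusted p = 2.01e-06). The androgen receptor gene lies on the X chromosome and is outside the autosomal set. Of the 12 tested autosomal receptors and cofactors of sex steroids, 3 were higher in males, 3 were higher in females and 6 did not pass (1 and 7 higher with equal totals), with a median log2 difference of 0.03. The membrane estrogen receptor Gper1 was at 19.5 to 60.1 with a median of 39.1 in males and 28.9 to 52.4 with a median of 36.7 in females and did not pass (adjusted p = 0.747).

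Downstream of the prolactin and growth hormone receptors the 2 STAT5 genes did not pass the test over all 24 libraries, while some targets did. Stat5a and Stat5b, the transcription factors of this pathway, had log2 differences of 0.28 ± 0.15 and 0.03 ± 0.09 and adjusted p-values of 0.124 and 0.771, and with equal totals Stat5b turned to -0.25 (adjusted p = 0.0146). Stat5a did pass, higher in males, when the 12 inactive-period libraries were fitted alone (adjusted p = 0.014). Socs2, a feedback inhibitor that STAT5 induces, was at 1459 to 2484 with a median of 1844 in females and 773 to 1585 with a median of 874 in males (2.01-fold, log2 difference -1.03 ± 0.37 SE, adjusted p = 0.0234), with overlap. Igf1, insulin-like growth factor 1, was at 843 to 1185 with a median of 962 in females and 317 to 598 with a median of 449 in males. Igf1 was 2.25-fold higher in females (log2 difference -1.19 ± 0.14 SE, adjusted p = 6.48e-08). Igfals, which holds it in plasma complexes, was 2.61-fold higher in females (log2 difference -1.35 ± 0.18 SE, adjusted p = 5.96e-07). Of the 19 tested genes of this pathway 3 were higher in males and 9 in females, with a median of -0.24 (-0.51 with equal totals). Stat5a, Stat5b and Socs2 were named after their values were seen.

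Genes reported to respond to androgen in kidney were mostly higher in males. Of 19 listed genes 13 were higher in males, all of them at least 2-fold, and 3 higher in females, with a median log2 difference of 2.45. The list was drawn from what is known of male and female kidneys, so its direction is not independent evidence. Kap was at 1265689 to 1471885 with a median of 1379271 in males and 203646 to 377857 with a median of 325426 in females. Kap was 4.44-fold higher in males (log2 difference 2.18 ± 0.16 SE, adjusted p = 1.87e-10). The female libraries varied more than the male ones in relation to their level, and the lowest male library stood above all of them. Odc1, ornithine decarboxylase, which begins polyamine synthesis, was at 41462 to 71036 with a median of 49493 in males and 8022 to 10722 with a median of 9469 in females. Odc1 was 5.55-fold higher in males (log2 difference 2.45 ± 0.13 SE, adjusted p = 7.39e-13). Timd2, a membrane protein that can take up ferritin, was at 3464 to 4016 with a median of 3691 in males and 169.8 to 278 with a median of 244 in females (15.97-fold). Cyp4b1, a cytochrome P450, was at 98286 to 117063 with a median of 109892 in males and 3032 to 4925 with a median of 4371 in females (25.9-fold). The exceptions include Abcb1b, a P-glycoprotein drug pump, at 783 to 1287 with a median of 1147 in females and 138 to 332 with a median of 188 in males (5.26-fold). Ren1, renin, was at 2195 to 3675 with a median of 2409.6 in females and 1467 to 1993 with a median of 1639.8 in males. Ren1 was 1.57-fold higher in females (log2 difference -0.64 ± 0.14 SE, adjusted p = 5.78e-04). Agt, angiotensinogen, chosen after its values were seen, had a log2 difference of 0.05 ± 0.09 (adjusted p = 0.663), which equal totals turned to -0.23 (adjusted p = 0.0163). Under every scaling tried 13 of the 19 were higher in males.

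Odc1 was the only gene of its pathway called at least 2-fold higher in males. Of 23 tested genes of polyamine and arginine metabolism 8 were higher in males and 6 in females (4 and 10 with equal totals), with a median of -0.08. Arg2, the mitochondrial arginase, was at 288 to 490.2 with a median of 399 in females and 79.7 to 153 with a median of 109 in males (3.57-fold). Oat, ornithine aminotransferase, was at 13295 to 17547 with a median of 16149 in females and 4579 to 5256 with a median of 5029.5 in males. Oat was 3.23-fold higher in females (log2 difference -1.69 ± 0.07 SE, adjusted p = 1.80e-19). Gatm, which makes the creatine precursor guanidinoacetate, was 1.75-fold higher in females, at 38629 to 53286 with a median of 45722 in females and 23715 to 28258 with a median of 25563 in males. Ass1, argininosuccinate synthetase, was 1.34-fold higher in males (log2 difference 0.43 ± 0.07 SE, adjusted p = 1.35e-05) with overlapping groups, and lost the call with equal totals (0.15, adjusted p = 0.131).

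Steroid-metabolizing enzymes were higher in males more often than in females. Of 24 tested genes 15 were higher in males, 10 of them at least 2-fold, and 6 were higher in females, with a median of 0.70 (14 and 8 with equal totals). Cyp7b1, which hydroxylates oxysterols and sex steroid precursors, was at 9807 to 10711 with a median of 10331 in males and 98.9 to 136 with a median of 114 in females. Cyp7b1 was 88.8-fold higher in males (log2 difference 6.47 ± 0.11 SE, adjusted p = 1.69e-25). Hsd17b2, which oxidizes estradiol and testosterone to weaker forms, was at 642 to 877 with a median of 839 in males and 59.7 to 118 with a median of 82.3 in females (9.33-fold). Hsd17b11, of the same dehydrogenase family, was at 12376 to 17712 with a median of 16227 in males and 2820.1 to 3269 with a median of 3152 in females (5.11-fold). Akr1c19 and Akr1c20, aldo-keto reductases, went the other way, 2.44-fold and 5.88-fold higher in females. Hsd11b2, which shields the mineralocorticoid receptor from glucocorticoid, was at 3319 to 3640.0 with a median of 3508 in females and 2262 to 2803 with a median of 2593 in males. Hsd11b2 was 1.37-fold higher in females (log2 difference -0.45 ± 0.05 SE, adjusted p = 2.16e-08). It is also a marker of the collecting duct, and its sex difference was larger in the inactive than in the active period (adjusted p = 0.0249 for the difference).

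Cytochromes P450 held some of the largest differences and no common direction. Of 50 tested family members 19 were higher in males, 13 of them at least 2-fold, and 14 in females, 7 of them at least 2-fold (15 and 20 higher with equal totals), with a median of -0.04. Cyp2e1, which oxidizes ethanol and small solvents, was at 75882 to 90227 with a median of 84819.5 in males and 2242 to 3758 with a median of 3316 in females. Cyp2e1 was 26.2-fold higher in males (log2 difference 4.73 ± 0.13 SE, adjusted p = 1.00e-18). Cyp4a12a, an omega-hydroxylase of arachidonic acid, was at 6498 to 13694 with a median of 8177 in males and 84.7 to 132 with a median of 107 in females (79.9-fold). Cyp2j5, an abundant arachidonic acid epoxygenase of the proximal tubule, was at 79799 to 90253 with a median of 85081 in males and 35616 to 43747 with a median of 41413 in females (2.08-fold). Cyp2a4, a steroid hydroxylase, was at 17631 to 21411 with a median of 20142 in males and 3913 to 8083 with a median of 6768 in females (3.07-fold). Cyp2d26 was higher in females, at 7549 to 9416 with a median of 7817 in females against 2952 to 3584 with a median of 3227 in males (2.52-fold). Cyp4a14, a fatty acid omega-hydroxylase that PPAR alpha induces, was at 15695 to 28944 with a median of 19341 in females and 997 to 8369.6 with a median of 1509 in males (6.34-fold, log2 difference -3.17 ± 0.51 SE, adjusted p = 2.17e-05), with 2 male libraries, replicates 1 and 4, at 6014.5 and 8369.6 and the other males at 997 to 1577. Its log2 difference was -3.45 without male replicate 1 and -3.55 without male replicate 4. Cyp2a4 and Cyp4a14 were named after their values were seen. Reads of near-identical family members can be split or lost in counting, so single paralogs, Cyp4a12a and Cyp2a4 among them, are less certain than the family.

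Every tested UDP-glucuronosyltransferase differed between the sexes. Of 13 genes 8 were higher in males and 5 in females, with at least 2-fold differences in 11, and the same 8 and 5 counts held under every scaling tried. Ugt2b37 was at 6674 to 10106 with a median of 8605 in males and 41.01 to 74.8 with a median of 55.05 in females. Ugt2b37 was 149.8-fold higher in males (log2 difference 7.21 ± 0.22 SE, adjusted p = 7.32e-17). Ugt2b38, more abundant, was at 53431 to 67047 with a median of 59135 in males and 3172 to 5456 with a median of 3953 in females (14.5-fold). Ugt2b34 of the same subfamily went the other way, at 3649 to 4452 with a median of 4235 in females and 841 to 1089 with a median of 912 in males. Ugt2b34 was 4.41-fold higher in females (log2 difference -2.14 ± 0.07 SE, adjusted p = 6.63e-21). The Ugt1a genes are first exons that share their remaining exons, so their counts rest on reads that reach a first exon. Among them Ugt1a1, the enzyme that clears bilirubin, was at 68.4 to 106 with a median of 80.3 in females and 0 to 10.7 with a median of 6.104 in males (14.6-fold). Like Ugt1a2 it was higher in females. Ugt1a7c was higher in males, at 5301 to 6760.1 with a median of 6508 in males against 2884 to 3399.8 with a median of 3286 in females (1.96-fold). Ugt3a2 was at 60272 to 67826 with a median of 65166 in males and 29776 to 35623 with a median of 33295 in females (1.98-fold). Ugt8a, which adds galactose to ceramide, was at 4958 to 6766 with a median of 5915 in males and 441 to 606 with a median of 516 in females (11.4-fold). Ugt2b38, Ugt1a7c and Ugt8a were named after their values were seen.

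Other enzymes of detoxification split by family. Of 10 tested carboxylesterases 6 were higher in males and 1 in females (6 and 2 with equal totals), with a median of 0.90, led by Ces1f at 41185 to 47032 with a median of 44743 in males and 2870.0 to 5374 with a median of 3797 in females. Ces1f was 11.2-fold higher in males (log2 difference 3.51 ± 0.13 SE, adjusted p = 2.63e-16). Of 11 tested genes of the glycine N-acyltransferase and Nat8 families, which make acylglycines and mercapturic acids, 7 were higher in males and 4 did not pass, where equal totals gave 6 higher in males and 2 in females. Nat8 was at 5891 to 7251 with a median of 6235 in males and 909 to 1631 with a median of 1356 in females (4.74-fold), and Nat8f5 was 8.85-fold higher in males. Fmo5, a flavin monooxygenase, was at 6078 to 7882 with a median of 7044 in males and 617 to 851 with a median of 694 in females (9.82-fold, log2 difference 3.29 ± 0.08 SE, adjusted p = 1.71e-23), while its relative Fmo1 at 21948 to 27403 with a median of 23708 in males and 20654 to 27249 with a median of 24839.5 in females did not pass (adjusted p = 0.688) except with equal totals, where it was called higher in females (-0.32, adjusted p = 1.71e-05). Of 22 tested glutathione S-transferases 9 were higher in females and 6 in males (15 and 4 with equal totals). Of all autosomal genes 27.8% were higher in females and 28.4% in males (8604 and 1983 of 16445 with equal totals). Among those higher in females, Gsta4 was at 4598 to 7357 with a median of 5676 in females and 843 to 971 with a median of 877 in males (6.53-fold). Gsta2 was at 19533 to 22248 with a median of 21249.8 in females and 4293 to 6629.7 with a median of 5131 in males (4.01-fold). Their median was -0.21 (-0.49 with equal totals). Gstp1 was higher in males, at 2848 to 3498 with a median of 3385 in males against 1699 to 1981 with a median of 1883 in females (1.76-fold). Within the Acsm synthetases, besides Acsm3, the abundant Acsm2 was at 214134 to 247826 with a median of 235366 in males and 51332 to 59710.0 with a median of 52669 in females (4.28-fold, log2 difference 2.10 ± 0.06 SE, adjusted p = 5.15e-23), and Acsm5 was 1.405-fold higher in males. Acsm1 was 1.31-fold higher in females with overlapping groups.

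Organic anion transporters were higher in males in 15 of 29 genes and higher in females in 8, with a median of 0.48, and equal totals made these 12 and 12. The basolateral uptake transporters behind organic acid secretion differed from each other. Slc22a6, organic anion transporter 1, was at 27003 to 32267 with a median of 30706 in males and 6586 to 11408 with a median of 9267 in females (3.22-fold, log2 difference 1.70 ± 0.17 SE, adjusted p = 2.24e-08), whereas Slc22a8, organic anion transporter 3, was at 20674 to 24869.7 with a median of 23836 in females and 14602 to 18371 with a median of 16124 in males. Slc22a8 was 1.43-fold higher in females (log2 difference -0.52 ± 0.09 SE, adjusted p = 1.97e-05). Slc22a12, the urate exchanger URAT1, was at 24852 to 30482 with a median of 27255 in males and 6776 to 9739 with a median of 7659.6 in females (3.46-fold). Slc17a1, an apical anion and urate transporter, was at 26915 to 32415 with a median of 30873 in males and 10202 to 13478 with a median of 11725 in females (2.57-fold). Slco3a1 and Slco4c1, relatives of Slco1a1, were 5.45-fold and 3.86-fold higher in males. Slc22a6, Slc22a8 and Slc22a12 were named after their values were seen.

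A cluster of Slc22 genes on chromosome 19 held neighbours with opposite sex differences. Slc22a28 was at 9599.5 to 11418 with a median of 10831 in males and 1203 to 2040.2 with a median of 1559.6 in females (6.81-fold, log2 difference 2.79 ± 0.12 SE, adjusted p = 1.42e-15), and Slc22a30 at 12088 to 15717 with a median of 13997 in males and 513 to 1161 with a median of 621 in females. Slc22a30 was 20.3-fold higher in males (log2 difference 4.39 ± 0.18 SE, adjusted p = 2.08e-14). Slc22a29, whose start lies between those of the other two, was at 2454 to 3329 with a median of 2921 in females and 105 to 187 with a median of 137 in males. Slc22a29 was 20.2-fold higher in females (log2 difference -4.35 ± 0.13 SE, adjusted p = 9.14e-20). Slc22a27, chosen after its values were seen, was also higher in females, at 118 to 174 with a median of 145 in females against 13.6 to 21.95 with a median of 18.8 in males (7.94-fold). These are close paralogs, so reads that fit several of them can be misplaced or lost in counting. The groups did not overlap in any of these 4 genes, against 32.7% of all autosomal genes tested. Lack of overlap was a condition for listing Slc22a29 among the largest differences, and Slc22a27 was chosen with its values known. The lack of overlap is therefore no further result for this cluster.

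The 250 bases before the starts of the 3 genes are shown because the pair that was high in males has nearly the same sequence there and the gene high in females does not. They are from RefSeq on build GRCm38.p6, all on the minus strand, and capitals mark runs of at least 15 bases shared with 1 other promoter, that of Slc22a30 for the first and the last sequence and that of Slc22a28 for the middle one. The regions are chr19:8131983-8132232 for Slc22a28, chr19:8405106-8405355 for Slc22a30 and chr19:8218901-8219150 for Slc22a29.
Slc22a28: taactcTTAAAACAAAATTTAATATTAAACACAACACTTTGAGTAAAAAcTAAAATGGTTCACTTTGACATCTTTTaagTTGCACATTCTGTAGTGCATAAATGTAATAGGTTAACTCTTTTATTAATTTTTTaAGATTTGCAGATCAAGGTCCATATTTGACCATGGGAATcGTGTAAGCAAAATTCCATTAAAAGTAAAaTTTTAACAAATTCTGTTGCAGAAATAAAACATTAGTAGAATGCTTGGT
Slc22a30: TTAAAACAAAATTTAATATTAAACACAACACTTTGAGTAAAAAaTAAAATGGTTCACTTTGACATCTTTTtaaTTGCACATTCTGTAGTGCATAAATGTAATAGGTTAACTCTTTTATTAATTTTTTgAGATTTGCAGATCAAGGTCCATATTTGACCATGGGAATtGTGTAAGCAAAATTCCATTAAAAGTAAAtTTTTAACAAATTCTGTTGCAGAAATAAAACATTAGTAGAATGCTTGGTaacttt
Slc22a29: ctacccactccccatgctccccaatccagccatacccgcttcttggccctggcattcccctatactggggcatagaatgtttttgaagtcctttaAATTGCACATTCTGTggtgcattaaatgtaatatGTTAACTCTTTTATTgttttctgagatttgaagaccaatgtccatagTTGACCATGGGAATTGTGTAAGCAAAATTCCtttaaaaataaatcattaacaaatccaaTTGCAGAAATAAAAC
Of the 250 bases, 237 of Slc22a28 lie in runs shared with Slc22a30. Slc22a29 has 76 bases in runs shared with Slc22a30 and 46 in runs shared with Slc22a28. Runs shared with Slc22a27, which was also higher in females, held 0 bases of each of the 3 windows. None of the 3 windows holds the hexamer AGAACA of androgen receptor sites or the STAT5 site TTCNNNGAA on either strand, which says only that these letters are not in these windows. Over all promoter windows of the table, 16.2% hold AGAACA and 7.18% hold TTCNNNGAA. The shares were 14.7% and 5.25% for 381 genes at least 2-fold higher in males that matched the table by symbol, and 11.1% and 6.10% for 541 such genes higher in females. Among the promoters of all tested autosomal genes they were 11.0% and 6.17%.

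Organic cation transporters had log2 differences from -1.52 to 1.48. Slc22a2, which takes up creatinine and metformin from blood, was at 10395 to 13329.9 with a median of 12348 in males and 3879 to 5122 with a median of 4310.3 in females. Slc22a2 was 2.78-fold higher in males (log2 difference 1.48 ± 0.10 SE, adjusted p = 1.67e-12). Slc47a1, the apical partner that passes cations into urine, was 1.59-fold higher in males. In this list of 14 genes 6 were higher in males and 4 in females (4 and 6 with equal totals), with a median of 0.13 (-0.15 with equal totals).

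Efflux pumps of the ABC family went the other way at the large end. Of 38 tested genes 11 were higher in males, none of them at least 2-fold, and 16 were higher in females, 9 of them at least 2-fold (4 and 23 higher with equal totals). Abcc4, which exports urate and cyclic nucleotides, was at 3712 to 4860.5 with a median of 4170.4 in females and 966 to 1379 with a median of 1169.6 in males. Abcc4 was 3.67-fold higher in females (log2 difference -1.88 ± 0.10 SE, adjusted p = 1.48e-14). Abcc5 was 1.67-fold higher in females. The family median was -0.35 (-0.63 with equal totals).

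Amino acid and sugar uptake leaned to females apart from a few genes. Of 33 tested amino acid transporters 7 were higher in males and 15 in females (6 and 20 with equal totals), with a median of -0.28. Slc7a8, the basolateral neutral amino acid exchanger, was at 6639 to 8019 with a median of 7226 in females and 3295 to 3974 with a median of 3706 in males. Slc7a8 was 1.97-fold higher in females (log2 difference -0.98 ± 0.06 SE, adjusted p = 7.25e-14). Slc7a9, the cystine transporter subunit mutated in cystinuria, was at 5002 to 5656 with a median of 5352 in females and 3156 to 3674 with a median of 3429 in males (1.54-fold). Slc36a1, a proton-coupled transporter of small amino acids, was 1.53-fold higher in males. Of 18 tested sugar and sodium-coupled solute carriers 11 were higher in females and 1 in males (16 and 1 with equal totals). Slc5a2, the glucose transporter SGLT2 that gliflozin drugs block, was at 6657 to 7586 with a median of 6972 in females and 4989 to 6403 with a median of 5709 in males. Slc5a2 was 1.25-fold higher in females (log2 difference -0.32 ± 0.07 SE, adjusted p = 2.17e-04). Slc5a12, which takes up lactate, was 2.04-fold higher in females, and the 1 gene higher in males, Slc5a8, also a monocarboxylate transporter, was at 11267 to 16331 with a median of 14488 in males and 3323 to 5087 with a median of 3985 in females. Slc5a8 was 3.48-fold higher in males (log2 difference 1.80 ± 0.12 SE, adjusted p = 2.58e-11). Slc5a2 was named after its values were seen.

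Genes of salt transport differed by less than 2-fold, with the exception of Sgk1. Among 40 tested genes for sodium, potassium and chloride transport, 15 were higher in males and 20 in females (5 and 26 with equal totals). Slc12a3, the thiazide-sensitive cotransporter of the distal convoluted tubule, was at 53164 to 65001 with a median of 62779.6 in females and 34961 to 42181 with a median of 37279 in males. Slc12a3 was 1.63-fold higher in females (log2 difference -0.70 ± 0.06 SE, adjusted p = 7.71e-12). Slc12a1, the loop diuretic target of the thick ascending limb, was 1.36-fold higher in females, at 37768 to 43613 with a median of 41927 in females against 27184 to 32548 with a median of 31475 in males, and Kcnj1, its partner potassium channel, 1.35-fold. Of the sodium channel subunits of the collecting duct, Scnn1g was 1.47-fold and Scnn1b 1.29-fold higher in females. Klhl3, which directs the degradation of WNK kinases, was at 2681 to 3064 with a median of 2871 in females and 1353 to 1993 with a median of 1795 in males (1.63-fold), and Cul3, its ubiquitin ligase scaffold, was higher in males at 7111 to 7957 with a median of 7795 in males and 5148 to 6085 with a median of 5411 in females (1.39-fold). Kcnj15, a potassium channel, was the largest of the male-direction genes here, at 42305 to 48716 with a median of 44919 in males and 23637 to 28117 with a median of 25059.5 in females. Kcnj15 was 1.78-fold higher in males (log2 difference 0.84 ± 0.06 SE, adjusted p = 3.34e-12). Sgk1, the kinase that aldosterone and glucocorticoid induce, was at 3979.6 to 8225 with a median of 6636 in females and 1393 to 6362 with a median of 2729.8 in males (2.08-fold, log2 difference -1.21 ± 0.29 SE, adjusted p = 0.00142), with overlap and the highest male, replicate 1, above 3 of the females.

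Genes of phosphate, calcium and acid handling also had differences in both directions. Slc34a1, the main phosphate transporter of the proximal tubule, was at 103551 to 115148 with a median of 108704 in males and 72637 to 83067 with a median of 79133 in females (1.39-fold, log2 difference 0.47 ± 0.06 SE, adjusted p = 1.29e-07), and this male excess was smaller than in the active period (adjusted p = 0.0228 for the difference). In the distal tubule the calcium genes Slc8a1, a sodium-calcium exchanger, Trpv5, the entry channel, and Atp2b4, a calcium pump, were 1.64-fold, 1.51-fold and 1.895-fold higher in females. Gc, the vitamin D binding protein, was at 3739 to 4895 with a median of 4102 in females and 832 to 1357 with a median of 1001 in males. Gc was 3.93-fold higher in females (log2 difference -1.99 ± 0.08 SE, adjusted p = 1.18e-17). Cubn and Lrp2, the receptors that take up filtered protein, were 1.27-fold and 1.18-fold higher in females (Lrp2 was named after its values were seen). Of 21 tested genes of acid-base and ammonia handling 11 were higher in females and 1 in males (17 and 1 with equal totals). That 1 was Car4, the membrane carbonic anhydrase of the proximal tubule, at 6384 to 8721 with a median of 7617 in males against 2165 to 3021 with a median of 2479 in females (2.91-fold, log2 difference 1.54 ± 0.09 SE, adjusted p = 5.35e-14), while Car2, the cytosolic one, was 1.42-fold higher in females.

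Genes of renin, angiotensin and related peptides were higher in females in 14 of 24 cases and in males in 3 (19 and 2 with equal totals), with a median of -0.49. Ace, angiotensin-converting enzyme, was among the 3, at 6352 to 7794 with a median of 7157 in males and 2119.8 to 3429.7 with a median of 2771 in females (2.601-fold, log2 difference 1.39 ± 0.11 SE, adjusted p = 8.58e-11), opposite in direction to Ren1. Ednra, the endothelin A receptor, was at 153 to 214 with a median of 188 in females and 53.1 to 116 with a median of 95.6 in males (2.06-fold). Npr3, the clearance receptor of natriuretic peptides, was 1.65-fold and Corin, the protease that makes atrial natriuretic peptide, 1.47-fold higher in females. Nfat5, the osmotic stress factor, was at 5675 to 7014 with a median of 6213 in females and 3858 to 4738 with a median of 4092 in males. Nfat5 was 1.51-fold higher in females (log2 difference -0.59 ± 0.08 SE, adjusted p = 8.15e-07). Adcy6, the adenylyl cyclase behind vasopressin action, was 1.55-fold higher in females.

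Genes of fatty acid oxidation were higher in males more often than in females, 25 against 8 of 47, with a median of 0.33, and 18 against 17 with equal totals. Cd36, the fatty acid uptake receptor, was at 29703 to 38764 with a median of 34920.1 in males and 3888 to 6690.0 with a median of 5453 in females. Cd36 was 6.44-fold higher in males (log2 difference 2.70 ± 0.13 SE, adjusted p = 1.26e-13). Slc27a2, which activates very long-chain fatty acids, was at 204530 to 232628 with a median of 223345 in males and 109740 to 133418 with a median of 113568 in females (1.86-fold). Acads, the short-chain acyl-CoA dehydrogenase, was 2.39-fold higher in males. The carnitine step enzyme Cpt1a was 1.44-fold higher in males (log2 difference 0.53 ± 0.06 SE, adjusted p = 3.09e-08). The regulator Ppara was 1.285-fold higher in females with overlapping groups (log2 difference -0.37 ± 0.11 SE, adjusted p = 0.00563). Against the trend the thioesterases Acot3 and Acot7 were 4.24-fold and 2.63-fold higher in females, while Acot12 was 3.38-fold higher in males. Cpt1a and Ppara were named after their values were seen.

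Genes of lipid synthesis were higher in males in 13 of 30 cases and in females in 7, with a median of 0.25, and in 9 and 11 with equal totals. Me1, malic enzyme, a source of NADPH, was at 27774 to 33883 with a median of 31448 in males and 8493 to 10822 with a median of 10033 in females. Me1 was 3.18-fold higher in males (log2 difference 1.67 ± 0.07 SE, adjusted p = 4.42e-19). Mogat1, which makes diacylglycerol, was at 5844 to 8237 with a median of 6985 in males and 546 to 1036 with a median of 925 in females (7.96-fold). Agps, which begins ether lipid synthesis in peroxisomes, was at 16869.8 to 25336 with a median of 20860.1 in males and 3485 to 5042 with a median of 4113 in females. Agps was 5.08-fold higher in males (log2 difference 2.34 ± 0.08 SE, adjusted p = 8.72e-20). Chpt1, a choline phosphotransferase, was 2.103-fold higher in males. Elovl6, a fatty acid elongase, was higher in females, at 2459 to 2819 with a median of 2553 in females and 554 to 837 with a median of 736 in males. Elovl6 was 3.65-fold higher in females (log2 difference -1.88 ± 0.08 SE, adjusted p = 1.56e-17). Of 23 tested cholesterol synthesis genes 9 were higher in males and 5 in females, with a median of -0.004 (5 and 11, with a median of -0.28, with equal totals). Idi1, of the mevalonate pathway, was at 1844 to 2712 with a median of 2063 in males and 402 to 599.9 with a median of 506 in females (4.26-fold), and Hmgcs1, an early enzyme of it, was 2.15-fold higher in males.

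Mitochondrial genes leaned to males by a small amount that the scaling can remove. Of 73 tested nuclear genes of the respiratory chain 62 were higher in males and 11 did not pass, with a median log2 difference of 0.315, while equal totals gave 16 higher in males and 6 in females and a median of 0.035. Of the 13 mitochondrial mRNAs, which are not autosomal, 10 were higher in males and 3 did not pass, with a median of 0.286 (0.0061 with equal totals). Cycs, cytochrome c, was the largest of the nuclear genes, at 13536 to 15278 with a median of 13893 in males and 6599 to 7573 with a median of 7046 in females. Cycs was 2.01-fold higher in males (log2 difference 1.01 ± 0.06 SE, adjusted p = 1.51e-15). Ndufv1, of complex I, was 1.51-fold higher in males. The cytosolic ribosomal protein genes turned with the scaling, with 25 of 76 higher in males and 51 not passing as deposited, but 2 higher in males and 41 in females with equal totals.

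Redox genes were more often higher in males, while iron and hypoxia genes were split. Of 33 tested genes of glutathione, NRF2 and redox 24 were higher in males and 5 in females, with a median of 0.49 (19 and 7 with equal totals). Selenop, the selenium carrier, was at 77417 to 93343 with a median of 82486 in males and 20405 to 23070.4 with a median of 22131 in females. Selenop was 3.81-fold higher in males (log2 difference 1.93 ± 0.05 SE, adjusted p = 5.15e-23). Ephx2, soluble epoxide hydrolase, was at 24920.0 to 27776 with a median of 26416 in males and 6602 to 6977 with a median of 6789.7 in females (3.88-fold, log2 difference 1.95 ± 0.06 SE, adjusted p = 5.68e-22), with no overlap. Of 22 tested genes of hypoxia, erythropoietin and iron 8 were higher in males and 8 in females, with a median of 0.02 (4 and 11 with equal totals). Fth1, ferritin heavy chain, was 1.89-fold higher in males, at 115246 to 134049 with a median of 123298 in males and 60698 to 69727 with a median of 65963 in females. Trf and Cp, the iron carrier transferrin and the ferroxidase ceruloplasmin, went the other way, 3.59-fold and 2.45-fold higher in females, as did the iron exporter Slc40a1 (1.86-fold). Spp1, osteopontin, an abundant secreted protein of tubules, was at 55033 to 63393 with a median of 59359 in females and 23623 to 30229.7 with a median of 24168 in males. Spp1 was 2.34-fold higher in females (log2 difference -1.23 ± 0.05 SE, adjusted p = 4.99e-18).

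Chaperones were higher in males in 10 of 16 heat shock genes and the other 6 did not pass, with a median of 0.69 (7 higher in males and 1 in females with equal totals). Hsp90aa1, the inducible cytosolic HSP90, was at 16938 to 30542 with a median of 25425 in males and 11037 to 14564 with a median of 11398 in females. Hsp90aa1 was 2.03-fold higher in males (log2 difference 1.003 ± 0.15 SE, adjusted p = 9.41e-06). Hspd1, the mitochondrial chaperonin, was at 31897 to 38657 with a median of 36918 in males and 18180.2 to 21874 with a median of 19965 in females (1.82-fold). Among 22 tested genes of the response to unfolded proteins, 9 were higher in males and 13 did not pass, but equal totals gave 3 higher in males and 4 in females. In 5 of the 22 the sex difference differed between the periods, against 2.79% of all autosomal genes tested. Xbp1, its transcription factor, was 1.48-fold higher in males in the inactive period with overlapping groups (log2 difference 0.58 ± 0.09 SE, adjusted p = 8.86e-06) and had a log2 difference of -0.10 in the active period (adjusted p = 0.0078 for the difference between periods). Fkbp5, a chaperone that glucocorticoids induce and androgens also regulate, was at 1895 to 4234 with a median of 3169 in males and 757 to 1438 with a median of 831 in females. Fkbp5 was 3.27-fold higher in males (log2 difference 1.71 ± 0.17 SE, adjusted p = 2.99e-08).

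**Figure D3:**
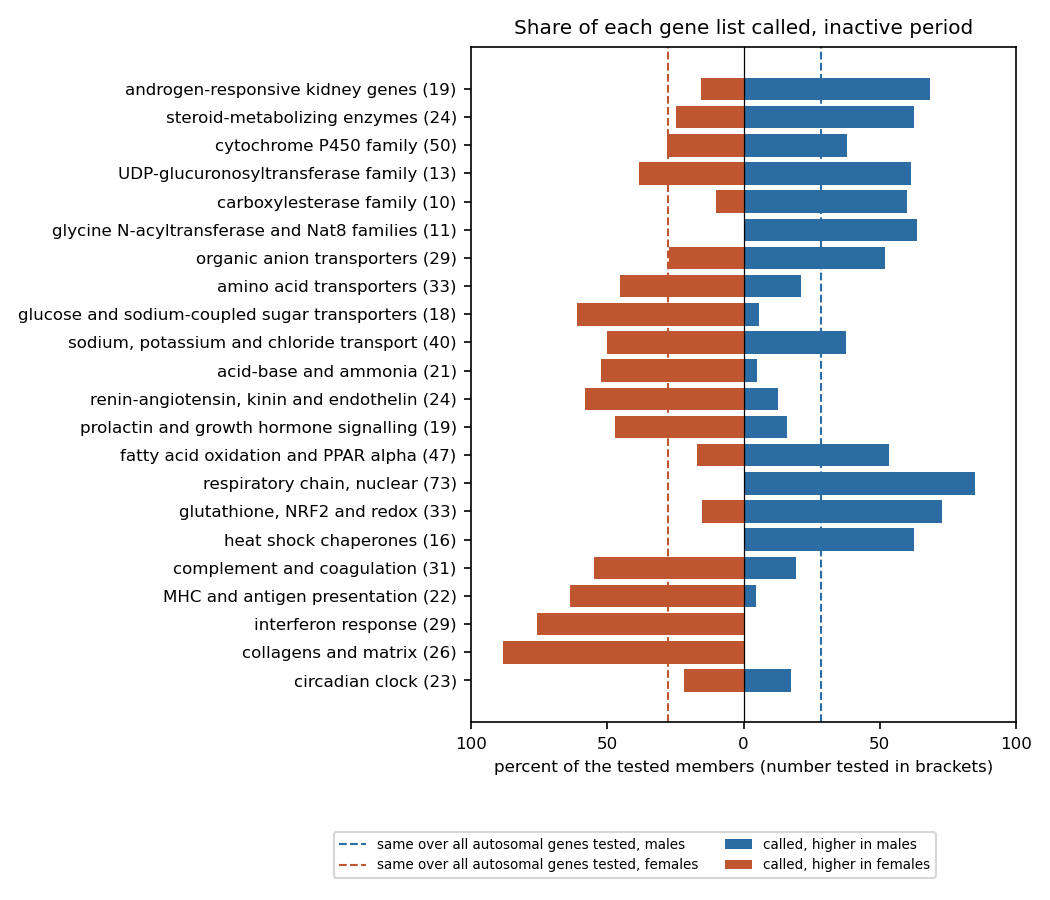
Bars give the percent of the tested members of each gene list called higher in males (right) and in females (left), with the number tested in brackets, and dashed lines give the same shares over all 16445 autosomal genes, 28.4% and 27.8%. The respiratory chain has no member called higher in females, and the interferon and collagen lists have none called higher in males.

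Immune and matrix genes were more often higher in females than in males. Of 29 tested interferon response genes 22 were higher in females and 7 did not pass, with a median of -0.58. Gbp3, a guanylate-binding protein, was at 1649 to 3298 with a median of 2679.6 in females and 313 to 595 with a median of 443 in males. Gbp3 was 5.603-fold higher in females (log2 difference -2.48 ± 0.22 SE, adjusted p = 5.95e-09). Rsad2, viperin, was 1.93-fold and Ifi44 1.85-fold higher in females. Of 22 tested genes of antigen presentation 14 were higher in females and 1 in males, with H2-Q6 2.21-fold and B2m, the light chain of class I molecules, 1.41-fold higher in females. Of 31 complement and coagulation genes 17 were higher in females and 6 in males (20 and 5 with equal totals). C4b and Cd55, a complement component and a complement inhibitor, were 3.08-fold and 2.55-fold higher in males. Serpina1d and Serpina1b, of the alpha-1 antitrypsin genes, were 7.797-fold and 11.2-fold higher in males, and Serpinf2, alpha-2 antiplasmin, was at 9578 to 12133 with a median of 10411 in males and 1019 to 1706 with a median of 1238 in females (8.34-fold). Of 26 collagens and matrix genes 23 were higher in females and 3 did not pass, with a median of -0.94. Col6a3 was at 1035 to 1504 with a median of 1423 in females and 352 to 762 with a median of 481 in males (2.65-fold, log2 difference -1.44 ± 0.14 SE, adjusted p = 9.11e-09), Col3a1 was 2.14-fold higher in females, and Lum, the proteoglycan lumican, 2.98-fold. The interferon, antigen presentation and collagen lists kept their direction under every scaling tried.

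Markers of several cell types outside the proximal tubule, though not of all, were also mostly higher in females. In bulk RNA fewer cells of a type and less RNA per cell cannot be told apart. All 10 fibroblast markers were higher in females (median -0.995), with a summed level of 18573 to 28271 in females and 9701 to 16530.2 in males. All 12 endothelial markers (median -0.88, sums of 22642 to 30626 and 12768 to 21394) and all 11 podocyte markers (median -0.68, sums of 22255 to 25113 and 14548 to 17198) were higher in females too, as were 8 of 10 macrophage markers (median -0.66, sums of 3861 to 5047 and 3224 to 4189). No marker of these 4 lists was at 0. In 3 of the 10 fibroblast markers the sex difference differed between the periods, against 2.79% of all autosomal genes tested. The part of these 4 cell types in the immune and matrix differences was not tested. The endothelial gene Tek, the angiopoietin receptor, was at 1502 to 2161 with a median of 2052 in females and 867 to 1321 with a median of 939.8 in males (1.98-fold), and the podocyte gene Podxl, podocalyxin, at 8449.9 to 9949.6 with a median of 8989 in females and 4896 to 5932 with a median of 5644 in males. Podxl was 1.65-fold higher in females (log2 difference -0.72 ± 0.05 SE, adjusted p = 5.01e-13). Of the 8 tested lymphocyte markers of T and natural killer cells 4 were higher in females, among them Cd4 (2.73-fold) and Cd3e (2.75-fold, with overlap). The summed level of all 9 listed markers of these cells, 1 of them under the filter, was 237 to 347 in females and 115 to 218 in males. Of 9 B cell and plasma cell markers 1 was higher in females and 8 did not pass. Of 5 tested red blood cell markers 1 was higher in females and 4 did not pass. The 1 tested neutrophil marker did not pass, and Mpo, another, was at 0.

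Markers of the tubule segments went in both directions. In the early proximal tubule (segments 1 and 2) 9 of 11 markers were higher in females and 1, Slc34a1, in males, with a median of -0.35. In the last segment 9 of 13 were higher in males and 4 in females, with a median of 0.48 and members from -6.38 (Slc7a12) to 9.61 (Slc7a13). Its summed level was 194884 to 247127 in males and 54309 to 73829 in females. This list holds Slc7a13, Acsm3, Cyp7b1, Agps and Slc7a12, described above for their sex differences. The sum is therefore not a measure of the segment apart from those genes. Of 10 markers of the whole proximal tubule 6 were higher in males and 3 in females, with a median of 0.21, and with equal totals 2 and 3 with a median of -0.07. The distal convoluted tubule had 7 of 8 markers higher in females (median -0.54), the intercalated cells 7 of 10 (-0.37), the principal cells of the collecting duct 5 of 7 (-0.37) and the thick ascending limb 4 of 8, with 1 higher in males (-0.25). Hnf4a, the transcription factor of proximal tubule identity, was at 23500.0 to 27627 with a median of 25129 in males and 16707 to 19940.0 with a median of 17306 in females. Hnf4a was 1.41-fold higher in males (log2 difference 0.50 ± 0.05 SE, adjusted p = 3.83e-09). Nr1h4, the bile acid receptor FXR, was at 5827 to 7761 with a median of 7523 in males and 2533 to 2826 with a median of 2758 in females (2.66-fold). Irx1 was 2.13-fold higher in males.

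Of markers of tissues that adjoin the kidney, several were not seen. The adrenal markers Cyp11b1, Cyp11b2 and Nr5a1 and the male accessory gland markers Svs2, Svs4, Svs5, Svs6 and Pate4 were at 0 in all 12 libraries, as were Fshr and Cyp19a1 of the ovary. The remaining gland marker, Spink1, was at 12953 to 14813 in males and 9674 to 14101 in females. Spink1 was called higher in males (log2 difference 0.28), a call lost with upper quartile scaling and with equal totals. The 1 tested adrenal marker was called higher in females (log2 difference -0.33). Of 4 tested markers of ovary and uterus 3 were higher in females. The 7 tested adipocyte markers had log2 differences from -0.89 to 0.88. The summed level of all 8 listed ones, 1 of them under the filter, was 2155 to 3738 in males and 1161 to 4988 in females. Of 8 urothelium markers 6 were higher in females, with Krt5 2.17-fold and Upk1b 1.79-fold, both with overlapping groups.

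**Figure D4:**
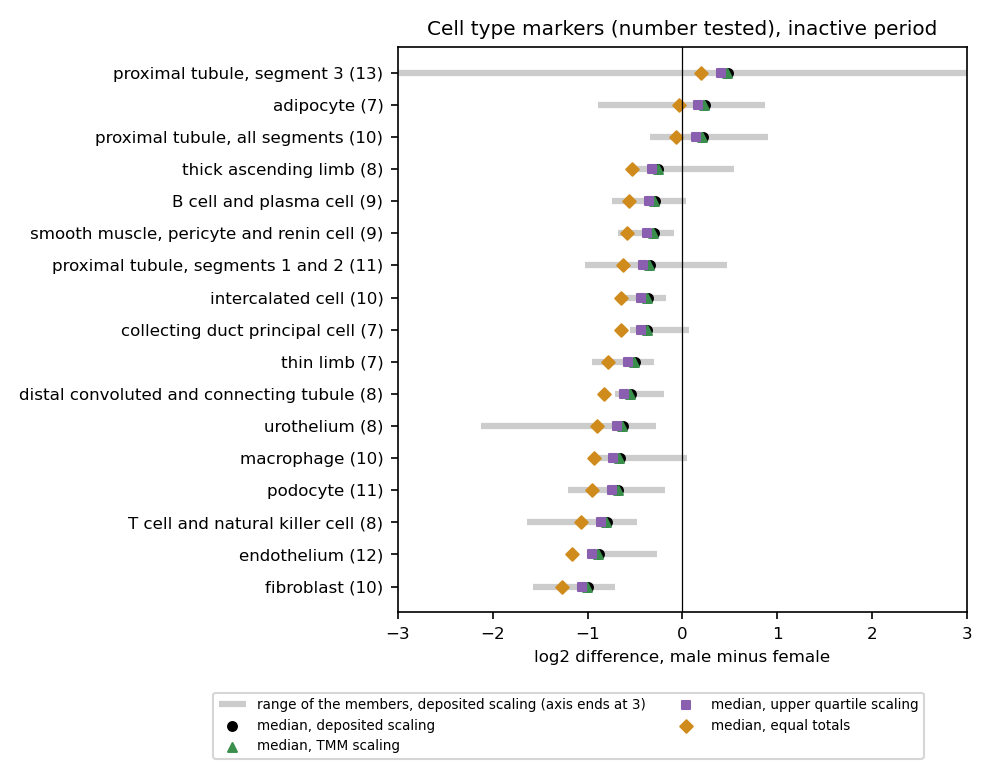
For each list of cell type markers with at least 7 tested members, grey bars span the log2 differences, male minus female, of its members, cut at 3 in both directions for the last proximal segment, and symbols give the median under 4 scalings. Equal totals shift every median to the left, so that the whole proximal tubule list moves from 0.21 to -0.07, while fibroblast, endothelium and podocyte lie on the female side throughout.

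Further abundant enzymes were higher in males. Keg1, an acyltransferase of the glycine N-acyltransferase group, was at 68130.1 to 103040 with a median of 80434 in males and 31591 to 51626 with a median of 36780.1 in females. Keg1 was 2.12-fold higher in males (log2 difference 1.09 ± 0.16 SE, adjusted p = 5.04e-06). Akr1a1, an aldehyde reductase, was 1.64-fold higher in males. Aldh3a2, the fatty aldehyde dehydrogenase, was at 9002 to 9561 with a median of 9307 in males and 3322 to 3871 with a median of 3630.3 in females. Aldh3a2 was 2.57-fold higher in males (log2 difference 1.36 ± 0.05 SE, adjusted p = 7.84e-20). Pcx, pyruvate carboxylase, and Ldha, lactate dehydrogenase A, were 1.85-fold and 1.92-fold higher in males. Aadat, an aminotransferase of the kynurenine pathway, named after its values were seen, was higher in females like Kynu, at 44019 to 60013 with a median of 51823 in females and 15208 to 21376 with a median of 16798 in males. Aadat was 2.91-fold higher in females (log2 difference -1.55 ± 0.11 SE, adjusted p = 3.65e-11). Il34, a growth factor for macrophages made by tubules, was at 554 to 881 with a median of 694 in males and 107 to 159 with a median of 123 in females (5.64-fold, log2 difference 2.48 ± 0.13 SE, adjusted p = 1.59e-16), opposite in direction to the macrophage markers.

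Clock genes differed little between the sexes at this time. Of 23 tested genes 4 were higher in males, 5 in females and 14 did not pass, with all differences under 2-fold. Arntl, also called Bmal1, was at 39.9 to 150.2 with a median of 108 in males and 36.2 to 164 with a median of 113 in females (adjusted p = 0.994), and Clock did not pass either (adjusted p = 0.997), though with equal totals it was called higher in females (-0.28, adjusted p = 0.000236). Per3 (log2 difference -0.52 ± 0.13 SE, adjusted p = 0.00197), Nr1d1 (log2 difference -0.48 ± 0.17 SE, adjusted p = 0.0221) and Csnk1e (log2 difference -0.80 ± 0.13 SE, adjusted p = 1.09e-05) were higher in females, and Npas2 (log2 difference 0.57 ± 0.21 SE, adjusted p = 0.0253) and Usp2 (log2 difference 0.47 ± 0.12 SE, adjusted p = 0.00288) in males. Nr1d1 lost its call without male replicate 3 (-0.39, adjusted p = 0.0616), Usp2 with equal totals (0.19, adjusted p = 0.184), and Npas2 with equal totals (0.29, adjusted p = 0.224) and without any 1 of 5 libraries, female replicates 3, 5 and 6 and male replicates 5 and 6 (adjusted p from 0.0502 to 0.0701). Dbp, the output factor of the clock, was at 1425 to 1835 with a median of 1716 in males and 1497 to 2609 with a median of 2261 in females (adjusted p = 0.189). It was called higher in females with equal totals (-0.62, adjusted p = 0.017) and with the 12 inactive-period libraries alone (adjusted p = 0.0383). With equal totals 15 of the 23 were called higher in females and the other 8 did not pass. Against 2.79% of all autosomal genes tested, the sex difference differed between the periods in 7 of the 23. These include Nr1d2, with log2 differences of -0.24 in the inactive and 0.70 in the active period (adjusted p = 0.00384 for the difference; its inactive-period value was called with equal totals, at -0.52 and adjusted p = 0.000865), Dbp (-0.34 and 0.98, adjusted p = 0.0242) and Per3 (-0.52 and 0.30, adjusted p = 0.0208).

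The sex difference of the inactive period was largely found again in the active period, in 12 other libraries. There 10019 autosomal genes (60.9%) were called, 5029 higher in males (30.6%) and 4990 in females (30.3%). Of the 9239 genes called in the inactive period 7435 (80.5%) were called in the same direction in the active period, which is 74.2% of the active-period calls, and 44 in the opposite one. Of the 1414 genes with at least a 2-fold difference, 1383 had the same sign in the active period. Across genes, which are not independent replicates, the log2 differences of the 2 periods had a Pearson correlation of 0.880. A difference between the periods was itself called in 458 autosomal genes (2.79%), 42 of them among the 1414. That count of 458 was 286 without female replicate 2, 287 without female replicate 3 and 286 without male replicate 3. Slco1a1 and Ugt1a2 had log2 differences of 13.80 and -10.46 in the active period, and neither passed the test of a difference between periods (adjusted p = 0.0942 and 0.619).

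Genes with the smallest p for a difference between periods were mostly not those with large sex differences in the inactive period. Tmem25, an immunoglobulin-domain membrane protein, was at 2455 to 3009.6 with a median of 2613 in males and 1597 to 2235 with a median of 1859 in females, with log2 differences of 0.48 in the inactive and 1.48 in the active period (adjusted p = 2.37e-05 for the difference). Sucnr1, the succinate receptor, was 2.39-fold higher in males in the inactive period (1.25) and further apart in the active period (2.16, adjusted p = 3.62e-05). Slc18a1, a vesicular monoamine transporter, followed the same pattern (1.01 and 1.83), as did Qdpr, which recycles tetrahydrobiopterin (0.32 and 0.81). With equal totals the inactive-period call of Qdpr was lost (0.039, adjusted p = 0.492). Slc16a1, the monocarboxylate transporter MCT1, was 1.39-fold higher in males in the inactive period and at -0.21 in the active one, and Ipmk, an inositol phosphate kinase, went from 0.06 to -0.57, where equal totals turned the inactive-period value to -0.22 (adjusted p = 0.0177). A1cf, an RNA-binding partner of the APOB editing enzyme, went from 0.25 to -0.70, and its inactive-period call did not hold with equal totals (-0.03, adjusted p = 0.802) or without any 1 of 8 libraries, female replicates 1, 2, 3 and 5 and male replicates 3, 4, 5 and 6 (adjusted p from 0.0609 to 0.124). It was also lost with no filter on low values (adjusted p = 0.0675), upper quartile scaling (0.148), the 12 inactive-period libraries alone (0.0528) and a plain variance prior (0.0646). Pnliprp1, a pancreatic lipase relative, was low in this period, at 18.4 to 45.96 with a median of 35.3 in males and 8.08 to 24.1 with a median of 20.02 in females, and had a log2 difference of 4.29 in the active one. These last 6 all had an adjusted p of 0.00267 for the difference between periods. Slc22a28 was also further apart in the active period (2.79 and 3.68, adjusted p = 0.00621).

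**Figure D5:**
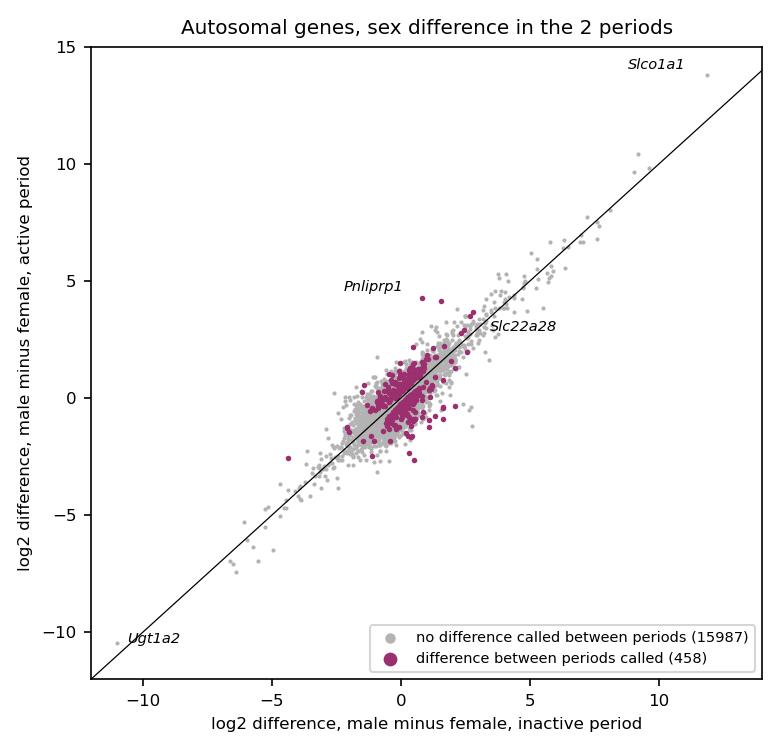
Each point is an autosomal gene, with its log2 difference, male minus female, in the inactive period on the horizontal axis and in the active period on the vertical one, and a line where they are equal. Purple points are the 458 genes whose difference between periods was called. Ugt1a2 at the lower left and Slco1a1 at the upper right keep their direction in both periods, and Slco1a1 lies above the line.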

How the data were processed

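Total kidney RNA was sequenced in 24 libraries, 6 for each sex and period, after poly A selection per the labels. Trim Galore 0.6.10, Subread 2.0.6 with featureCounts, DESeq2 1.28.1 and build GRCm39 are named in the submitters' processing notes, while their annotation release and strand setting are not given there. The authors deposited 1 table of signal values, which are gene counts over 1 size factor for each library. The deposited signal came out as whole reads within 0.05 in each library, which gave the read totals and the counts for edgeR and DESeq2 as alternatives. Intervals and floors from reads cover counting error only, since no molecular identifiers are named.

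Genes with a mean of at least 10 over the 24 libraries (17333) were fitted on log2(value + 1) by limma 3.58.1 in R 4.3.3, whose variance prior was trended and robust, with 4 groups and all libraries sharing 1 estimate of the spread. P-values were adjusted by Benjamini-Hochberg over all 17333 genes, and a gene was called at an adjusted p under 0.05. Every adjusted p in the text is limma's unless another tool is named. A log2 difference is male minus female on the log2(value + 1) scale, which understates low genes, while ratios are of group means. Of the fitted genes 16445 are autosomal by GENCODE M21 (GRCm38), matched by identifier for 52125 of 56748 identifiers, 533 lie on X or Y, 18 are mitochondrial, and 337 were left out because their place is unknown or unplaced. The fit was run on simulated counts with few genes changed and known size factors, which does not test the choice of scaling. Alternatives were other pseudocounts, filters, scalings, variance priors, library weights and tools (edgeR 4.0.16, DESeq2 1.42.0), each library left out, and a block for the title numbers.

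Named genes are the 15 largest called differences in each direction (the higher group averaging 50 or more, no overlap, no model identifiers), up to 4 members per list with the smallest p, sex steroid receptors and clock genes, the 8 smallest p-values for the difference between periods, and the 5 highest-level genes called at least 2-fold apart, and the text gives most of these, while some are not reported here. Members, lists and rule were chosen with earlier results of these data known. Promoter sequences are from RefSeq (GRCm38.p6) by symbol. A motif was searched on both strands of the 250 bases before each start, in 27025 promoters in all, and AGAACA overlaps with longer androgen receptor motifs.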

Additional observations from a re-analysis of the deposited data

Results flagged for a closer look

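In a group of 6 libraries the highest or the lowest can lie far from the others, and this was tested for each named gene in each sex of the inactive period. It was so in 22 of 383 such groups, where chance marks about 1 in 20. Atp13a4 was highest in female replicate 1, at 138 where the others were at 98.7 to 111. Slc12a3 was lowest in female replicate 1, at 53164 where the others were at 61223 to 65001. Ldha was lowest in female replicate 3, at 8373 where the others were at 9639 to 10112. Pnliprp1 was lowest in female replicate 4, at 8.08 where the others were at 18.2 to 24.1. Tek was lowest in female replicate 4, at 1502 where the others were at 1959.9 to 2161. Ass1 was highest in female replicate 5, at 93486 where the others were at 59708 to 71195. Bhmt was lowest in female replicate 5, at 597 where the others were at 1137 to 1423. Clic6 was highest in female replicate 5, at 490.1 where the others were at 215 to 276. Mogat1 was lowest in female replicate 5, at 546 where the others were at 867 to 1036. Ugt1a2 was lowest in female replicate 5, at 11139.6 where the others were at 14245 to 15352. Akr1c19 was highest in female replicate 6, at 2563 where the others were at 2098 to 2244. Hmgcs1 was highest in female replicate 6, at 17389 where the others were at 11858 to 13671. Hsp90aa1 was highest in female replicate 6, at 14564 where the others were at 11037 to 12265. Slc22a30 was highest in female replicate 6, at 1161 where the others were at 513 to 658. Hsd17b11 was lowest in male replicate 1, at 12376 where the others were at 15780.1 to 17712. Spp1 was highest in male replicate 1, at 30229.7 where the others were at 23623 to 25361. Atp13a4 was highest in male replicate 2, at 1.95 where the others were at 0 to 0. Cyp4a12a was highest in male replicate 2, at 13694 where the others were at 6498 to 8938. Tek was highest in male replicate 2, at 1321 where the others were at 867 to 1011. Socs2 was highest in male replicate 3, at 1585 where the others were at 773 to 964. Prlr was highest in male replicate 5, at 808 where the others were at 178 to 305. Slc7a12 was highest in male replicate 5, at 276 where the others were at 49.4 to 66.4.

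The sex difference differed between the periods in 26 of the genes named, by the interaction term of the limma fit at an adjusted p under 0.05. Over all autosomal genes tested the share was 2.79%. Some of the named genes were chosen for their small p in this same test, and the clock genes were named as a group. The count of 26 is therefore no measure of an excess among the named genes. The values that follow are the log2 difference of the inactive period minus that of the active period. It was positive for Npas2 (1.45), A1cf (0.95), C4b (0.85), Idi1 (0.82), Slc16a1 (0.69), Xbp1 (0.67), Ipmk (0.63), Selenop (0.33), Slc12a1 (0.31). It was negative for Pnliprp1 (-3.45), Dbp (-1.32), Tmem25 (-0.996), Nr1d1 (-0.95), Nr1d2 (-0.93), Sucnr1 (-0.91), Slc22a28 (-0.89), Acot3 (-0.83), Per3 (-0.82), Slc18a1 (-0.81), Col3a1 (-0.69), Gsta2 (-0.59), Qdpr (-0.49), Gstp1 (-0.47), Hsd17b11 (-0.43), Slc34a1 (-0.35), Hsd11b2 (-0.30). Dbp, Nr1d1, Nr1d2, Per3 and Npas2 in these lists are clock genes.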

How the results depend on the processing

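The counts of called genes kept within 1.5 times their values under other pseudocounts, TMM and upper quartile scaling, library weights, the 12 inactive-period libraries alone and adjustment over autosomal genes, and edgeR on recovered reads called 4582 genes higher in males and 4613 in females (9012 of the 9239 in the same direction), DESeq2 4728 and 4671 (9136 of 9239). Equal totals gave 1983 genes higher in males and 8604 in females, and 367 and 1946 at least 2-fold apart, by construction since the male totals are larger. A minimum mean of 50 left 477 genes at least 2-fold higher in females, with fewer genes tested. The 458 genes whose sex difference differed between periods became 242 with no filter on low values, where more genes are tested, 284 with a plain variance prior, whose cause was not tested, and 286 to 598 with 1 library left out. Leaving out 1 library gave 4436 to 4603 genes higher in males and 4269 to 4421 in females. Equal totals turned the log2 differences of A1cf to -0.030, Agt to -0.23, Ipmk to -0.22 and Stat5b to -0.25. Of the 193 genes named, 178 kept their direction and side of the threshold under all alternatives. Many of them were named for a small p or a large difference in these same data, so this share does not extend to other genes.

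The numbers in the titles, used as a replicate block, gave 4540 genes higher in males and 4492 in females, with 8878 of the 9239 called in the same direction, and Npas2 lost its call under the block (adjusted p = 0.0793) as did A1cf (adjusted p = 0.0778), while Dbp gained one (adjusted p = 0.0445). Deviations from the group means of same-numbered male and female libraries had correlations of -0.11, 0.056, -0.040, 0.12, -0.025 and -0.11, and 1 of 6 libraries matched its own number best, so the numbers were not taken as pairs.
Nr1d2 gained a call with upper quartile scaling (adjusted p = 0.0249), equal totals (0.000865), the 12 inactive-period libraries alone (0.0174) and DESeq2 (0.0331), and without female replicate 4 (0.0344). Pnliprp1 gained one with a pseudocount of 5 (adjusted p = 0.0235), the 12 libraries alone (0.0214) and DESeq2 (0.019), and without male replicate 6 (0.0494). The 12 libraries alone also gave calls to Dbp (adjusted p = 0.0383) and Stat5a (0.014). Depth limits the low genes, where a group with no reads gives only a bound.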
